A study of Mus musculus with 9 samples.

Results

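Respiratory complex I is assembled from proteins encoded in the nucleus and in mitochondrial DNA, and the 45 genes described here are its nuclear genes as they stand in a table of 21989 gene symbols measured in mouse heart. They were chosen by name alone: every symbol that starts with Ndufa, Ndufb, Ndufc, Ndufs or Ndufv and had a value above 0 in at least 3 of the 9 libraries. Of the 45, 36 encode subunits of the complex, 7 (Ndufaf1 to Ndufaf7) encode assembly factors, and 2 carry the symbol without belonging to the complex. These are Ndufa4, now counted as a subunit of cytochrome c oxidase (complex IV), and its paralogue Ndufa4l2, a gene known to be induced by low oxygen.

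Complex I takes electrons from NADH, passes them along a chain of iron-sulphur clusters in its matrix arm to ubiquinone, and uses the energy to pump protons through its membrane arm. A small set of core subunits carries out the chemistry, and a larger set of accessory subunits surrounds and stabilises them. Assembly factors join the growing complex for a time and are not part of the finished enzyme. The adult heart depends on oxidative phosphorylation for nearly all of its ATP, and lower expression of its genes is a much described feature of the failing heart.

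All 9 hearts, 3 in each of 3 groups, came from C57BL/6J males that were 18 to 20 weeks old. The LD group had the operation that the labels call TAC, usually read as transverse aortic constriction, which loads the left ventricle with pressure, and was given Lingguizhugan decoction, a Chinese herbal preparation. The TAC group had the same operation and distilled water. The sham group had a sham operation and distilled water. The labels give no dose, no interval between operation and sampling, and no litter, cage, operation day or sequencing batch, and RNA came from heart tissue with no chamber named. LD against TAC therefore asks what the decoction did in operated mice, and TAC against sham what the operation did.

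Values are FPKM, fragments per kilobase of gene and per M fragments counted (M as the prefix mega), and differences are in log2(FPKM + 1). No source says whether the hearts of a group came from separate litters or operation days, so p-values measure only the spread between these hearts. Library totals recovered from the FPKM steps were 7.43 to 18.1 M fragments in LD, 8.40 to 14.9 M in TAC and 14.5 to 18.1 M in sham. They lay close to the fragments counted in the listed genes (7.41 of 7.43 M in LD replicate 1). All 12 cardiomyocyte markers were above 0 in every library (Tnnt2, cardiac troponin T, averaged 12475 FPKM). The brown fat and skeletal muscle markers were mixed. Ucp1 of brown fat and Myh4 of skeletal muscle were listed at 0 in 8 of 9 libraries. Elovl3 and Plin1 of brown fat and Myh1 and Myh2 of skeletal muscle were at 0 in all 9. Adipoq of brown fat was at 0 in 7 libraries and Tnnc2 of skeletal muscle in 5. Cidea (mean 23.7 FPKM), Dio2 (1.14 FPKM) and Cox7a1 of brown fat were above 0 in every library. So were Mylpf (2.12 FPKM) and Ckm of skeletal muscle, while Tnnt3 and Tnni2 were at 0 in 1 library each. TAC replicate 3 had the lowest summed cardiomyocyte markers (39697 FPKM, against 52323 and 52490 in the other TAC hearts) and LD replicate 3 the highest (80674, against 52291 and 58466 in the other LD hearts). The fibroblast markers lay 1.07 and 1.13 above the sham mean in TAC replicates 2 and 3 on the log2 scale, and 0.18 above it in TAC replicate 1. Summed erythroid markers ran from 516 FPKM in sham replicate 1 to 11051 FPKM in TAC replicate 2. The tested atrial markers averaged 2.49 above the sham mean in LD replicate 3, against -0.19 and 0.35 in LD replicates 1 and 2. In TAC replicates 1 to 3 they averaged -0.04, 0.94 and 0.61. In bulk tissue, fewer cells of a type and less RNA per cell cannot be told apart.

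Promoters of the subunit genes are shown first because nuclear respiratory genes are textbook targets of a few transcription factors. RefSeq windows of 250 bases before to 50 after the start (build GRCm38.p6) were matched for 32 of the 36 subunit genes, in 34 windows, and for 6 of the 7 assembly factors. Both strands were searched. The core of the site of nuclear respiratory factor 1 (NRF1), searched as GCGCA, any base and GCGC, occurred in 8 of 34 subunit windows (23.5%), against 9.93% of the 11177 windows of genes tested and 4.603% of all 32851 windows. Overlapping windows of Ndufa5 hold the same site. By gene it was 7 of 32 subunit genes, against 1030 of the 8765 tested genes with a window. The letters recognised by YY1, searched as AA, any base, ATGGCG, any base and C, occurred in 7 of 34 (20.6%), against 3.35% of windows of genes tested. In 5 of the 7 they lay after the start of transcription and held the annotated start codon, so that the match also covers the first coding bases. These matches are letters in a window, not measured binding. The lines below give the matches with up to 9 bases on either side, in the direction of the gene, with the matched letters in capitals. The YY1 letters at the start codon come first, then the NRF1 letters (a match on the other strand appears as its reverse complement), and last the only match to T, any base and AAGGTCA, the site of oestrogen-related receptors, which 2.94% of subunit windows and 0.752% of windows of genes tested held.
Ndufs7 (chr10:80249464-80249492, plus strand): gccgaggccAAGATGGCGGCgctggcggg
Ndufs6 (chr13:73328433-73328458, minus strand): gtcaccggcAAGATGGCGGCggtgct
Ndufs4 (chr13:114388045-114388068, minus strand): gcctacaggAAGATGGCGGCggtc
Ndufa9 (chr6:126849096-126849124, minus strand): ttgtgggagAAGATGGCGGCcgccgtccg
Ndufc1 (chr3:51408914-51408942, minus strand): ctgcggaacAAGATGGCGCCgtccgtagt
Ndufs5 (chr4:123718266-123718293, minus strand): ctgcttgctGCGCAGGCGCagacccgct
Ndufs6 (chr13:73328480-73328507, minus strand): gactgctgtGCGCCTGCGCcggcacttg
Ndufa5 (chr6:24527698-24527725, minus strand): gtgtgagctGCGCAGGCGCaaatctacc
Ndufa6 (chr15:82354250-82354277, minus strand): cgtggcaccGCGCGTGCGCacgctgaag
Ndufa8 (chr2:36049350-36049377, minus strand): tagagcagtGCGCTTGCGCgtcgctgga
Ndufa11 (chr17:56717693-56717720, plus strand): ctgcactgcGCGCATGCGCgcacgcctt
Ndufb4 (chr16:37654541-37654568, minus strand): agaagcagtGCGCACGCGCagaatacgc
Ndufb4 (chr16:37654429-37654456, minus strand): cttgtgcgcGCGCAGGCGCacttcctga
Ndufb4 (chr16:37654372-37654399, minus strand): ctcatatccGCGCAGGCGCagatgtgcg
Ndufb4 (chr16:37654408-37654434, minus strand): tcctgagccTGAAGGTCAgactcgaga

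Ndufb4, an accessory subunit of the membrane arm, held NRF1 letters at 3 places and the oestrogen-related receptor letters between them. The ETS letters CCGGAAG, recognised by GABP, were no more common in subunit windows (11.8%) than in those of genes tested (16.9%), and GGGCGG, read by Sp1, occurred in 47.1% against 62.6%. Among assembly factors, Ndufaf4 and Ndufaf5 held the NRF1 letters and none of the 6 held the YY1 letters.

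Complex I subunits were among the most abundant messages of these hearts. Of the 36 subunit genes, 33 were among the 500 highest of all genes by mean FPKM, and their levels, which are per length, had a median of 541 FPKM, against 7.48 FPKM over the 11380 genes tested. Membrane-arm accessory subunits led: Ndufb7, which faces the intermembrane space, averaged 3120 FPKM, followed by Ndufb2 at 2797 and Ndufb9, a partner of the acyl carrier protein, at 2533. The core subunits ran lower, with a median of 270 FPKM and 791 FPKM for the highest of them, Ndufs7. Assembly factors stood far below, between 7.72 FPKM for Ndufaf5 and 29.2 FPKM for Ndufaf3. Neighbours in this order, such as Ndufb7 and Ndufb2, had ranges that overlapped over the 9 libraries.

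**Figure D1:**
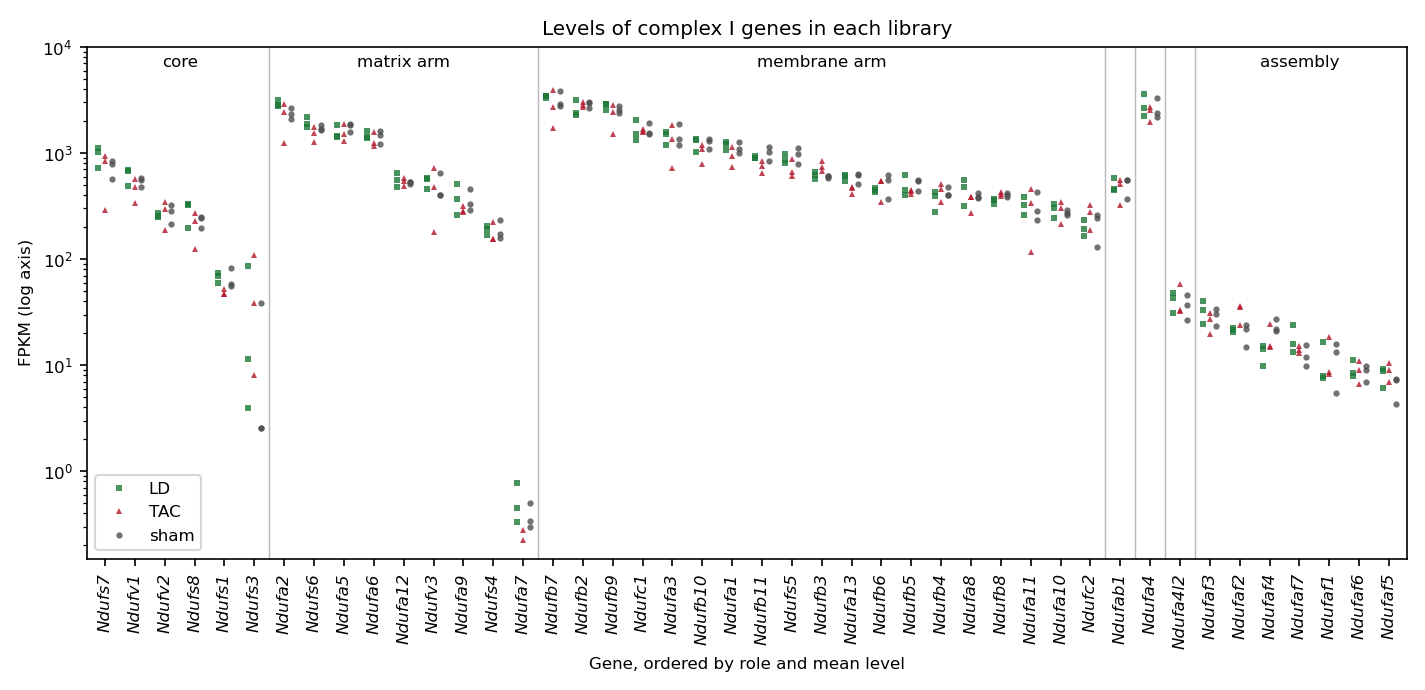
FPKM of 44 of the 45 genes in each library on a log axis, with genes ordered by role and then by mean level; squares are LD, triangles TAC and circles sham hearts, and a value listed at 0 (Ndufa7 in TAC replicate 3) is not drawn. Most subunits lie above 100 FPKM and the assembly factors at 40.0 FPKM or below, and Ndufs3 and Ndufa7 stand apart from the other subunits.

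Ndufa7 and Ndufs3 stood apart from the other subunits. Ndufa7, a matrix-arm accessory subunit, stood at 0.45, 0.33 and 0.78 FPKM in LD, 0.22, 0.28 and 0 in TAC, and 0.30, 0.50 and 0.34 in sham hearts, too low to be tested, with at most 60 fragments. Its recovered length was 4804 bases, against 640 bases for its annotated transcript. Ndufs3, a core subunit beside the ubiquinone site, stood at 3.94, 11.4 and 86.7 FPKM in LD, 8.10, 109 and 38.9 in TAC, and 38.8, 2.53 and 2.57 in sham hearts. That is a 43.2-fold span with high and low libraries in every group, while 23 of the 36 subunits varied by less than 2-fold over the 9 libraries. On chromosome 2 (90894634 to 90904827, minus strand, GRCm38) Ndufs3 shares 88 exon bases with Kbtbd4 on the other strand, which was listed at 0 to 0.237 FPKM. The shared bases are 4.04% of the annotated exon bases of Ndufs3. How the authors assigned fragments that fall on both genes has no source here. The recovered length of Ndufs3 was 1880 bases, against 1046 bases for its annotated transcript. Such a gap was not particular to these genes. Ndufa11 had 2661 against 918 bases, Ndufa13 2388 against 1251, Ndufaf5 2864 against 1200 and Ndufaf6 2337 against 1082. What sets the span of Ndufs3 was not tested, and the levels of Ndufs3 and Ndufa7 are uncertain.

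The core subunits of the electron path are given first. Ndufv1, which binds the flavin that accepts electrons from NADH, stood at 493, 672 and 686 FPKM in LD, 571, 481 and 336 in TAC, and 478, 578 and 559 in sham hearts. The lowest was TAC replicate 3, and the groups overlapped. Ndufv2, its iron-sulphur partner, stood at 255, 274 and 251 FPKM in LD, 187, 297 and 346 in TAC, and 283, 326 and 216 in sham hearts. Here TAC replicate 3 was the highest library and TAC replicate 1 the lowest. Ndufs1, the large subunit that carries several clusters, had 60.0, 69.0 and 74.3 FPKM in LD, 46.6, 52.8 and 46.6 in TAC, and 57.7, 83.0 and 55.3 in sham hearts. Every TAC heart lay below every LD heart and every sham heart.

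At the ubiquinone end of the matrix arm, Ndufs7, which holds the last cluster of the chain, had 718, 1019 and 1115 FPKM in LD, 928, 845 and 292 in TAC, and 567, 794 and 842 in sham hearts. The 292 FPKM of TAC replicate 3 was far below every other heart, and the other TAC hearts lay within the range of LD. Ndufs8, another iron-sulphur protein, had 198, 324 and 333 FPKM in LD, 274, 228 and 125 in TAC, and 195, 245 and 252 in sham hearts, again lowest in TAC replicate 3. Ndufs1 (chromosome 1, 63143596 to 63176833) shares 489 exon bases with the non-coding gene Ino80dos on the opposite strand.

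Accessory subunits of the matrix arm were less variable, apart from Ndufv3. Ndufa2, a thioredoxin-like protein, stood at 2853, 2794 and 3159 FPKM in LD, 2871, 2460 and 1234 in TAC, and 2111, 2324 and 2638 in sham hearts. All LD hearts were above all sham hearts, and TAC replicate 1 lay among the LD hearts. Ndufa5 had 1838, 1460 and 1429 FPKM in LD, 1287, 1525 and 1868 in TAC, and 1833, 1881 and 1579 in sham hearts, with overlap throughout. Ndufv3, a small subunit next to the flavin, ranged from 180 FPKM in TAC replicate 3 to 718 FPKM in TAC replicate 1, so that the lowest and the highest library belonged to the same group. Ndufs4, whose loss causes Leigh syndrome in people, ranged only from 154 to 231 FPKM, and Ndufs6, a zinc-binding subunit, from 1262 to 2190 FPKM.

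Ndufab1 is the mitochondrial acyl carrier protein, which sits in both arms of the complex. Its levels were 450, 463 and 575 FPKM in LD, 325, 554 and 510 in TAC, and 559, 561 and 368 in sham hearts. The lowest libraries were TAC replicate 1 and sham replicate 3, and the groups overlapped.

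In the membrane arm the subunits pulled in different directions. Ndufb3 had 627, 662 and 566 FPKM in LD, 743, 837 and 682 in TAC, and 608, 587 and 603 in sham hearts. Every TAC heart stood above every LD and sham heart. Ndufa13, also known as GRIM-19, had the opposite order, with 603, 541 and 627 FPKM in LD, 480, 415 and 467 in TAC, and 628, 626 and 511 in sham hearts. Ndufa13 (chromosome 8, 69894180 to 69902558, minus strand) shares 375 exon bases with Tssk6 on the other strand, which was listed at 0 to 0.713 FPKM. Ndufb11 had 898, 948 and 891 FPKM in LD, 750, 844 and 644 in TAC, and 1019, 1140 and 840 in sham hearts. TAC hearts were below all LD hearts, but TAC replicate 2 and sham replicate 3 crossed by a small margin. Ndufs5, which faces the intermembrane space, had 869, 798 and 983 FPKM in LD, 611, 662 and 873 in TAC, and 1127, 984 and 780 in sham hearts, and its groups overlapped.

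Ndufb8, at the far end of the membrane arm, was the steadiest subunit, with 334, 366 and 358 FPKM in LD, 393, 429 and 408 in TAC, and 422, 404 and 386 in sham hearts. All LD hearts lay below all TAC and all sham hearts, by small amounts. Ndufb4 had 279, 396 and 425 FPKM in LD, 346, 462 and 507 in TAC, and 478, 402 and 398 in sham hearts. Ndufc2 had 165, 191 and 236 FPKM in LD, 190, 326 and 278 in TAC, and 244, 261 and 131 in sham hearts. Both overlapped between groups. Ndufa10, a subunit with a nucleoside kinase fold, had 243, 306 and 327 FPKM in LD, 304, 344 and 216 in TAC, and 271, 290 and 260 in sham hearts.

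The 3 most abundant subunits overlapped between the groups as well. Ndufb7 had 3486, 3470 and 3330 FPKM in LD, 3921, 2696 and 1712 in TAC, and 2768, 2888 and 3806 in sham hearts. Ndufb2 had 3182, 2383 and 2288 FPKM in LD, 3034, 2827 and 2727 in TAC, and 2994, 2684 and 3056 in sham hearts. For Ndufb7 the 3 TAC hearts spanned the whole range of the 9 libraries. Ndufb9 had 2542, 2899 and 2894 FPKM in LD, 2829, 2451 and 1507 in TAC, and 2366, 2779 and 2533 in sham hearts. The remaining subunits ranged between 116 FPKM (Ndufa11 in TAC replicate 3) and 2071 FPKM (Ndufc1 in LD replicate 1).

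**Figure D2:**
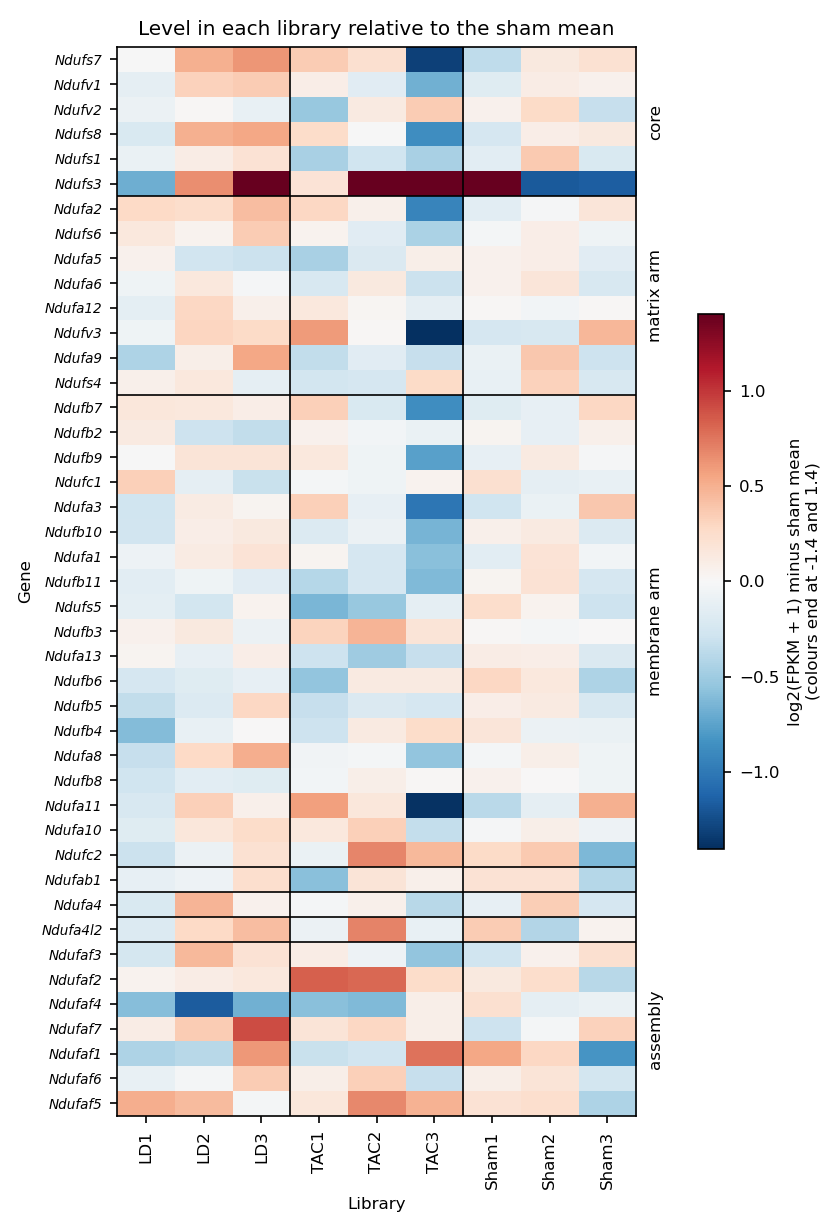
Level of 43 of the 44 tested genes (rows, by role) in the 9 libraries (columns, LD, TAC and sham) as log2(FPKM + 1) minus the mean of the 3 sham hearts; red is above and blue below the sham mean, and the colours end at -1.4 and 1.4. TAC replicate 3 is the column with the darkest blue, at -1.39 for Ndufv3, while the other TAC hearts are mixed, and Ndufs3 goes past the colour scale.

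LD against TAC compared operated mice with and without the decoction. No complex I gene passed the test, nor did any of the 11380 genes (limma, Benjamini-Hochberg adjusted p under 0.05), while 1004 genes (8.82%) had an unadjusted p under 0.05 (2.51% higher and 6.31% lower in LD) and 0 members did. With voom on recovered fragments 0 genes were called as well. The subunits stood higher in LD than in TAC by a median of 0.28 on the log2 scale, with 26 of 35 tested subunits above 0, against 39.6% of all genes above and 60.4% below 0 and a median of -0.10 over all genes. Among the core subunits the median was 0.47. Without TAC replicate 3 the subunit median was 0.12 (24 of 35 above 0), and without both TAC replicate 3 and LD replicate 3 it was 0.05 (22 of 35 above 0).

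Groups did not overlap for 6 subunits in LD against TAC, 4 higher (Ndufs1, Ndufa13 and Ndufb11 among them) and 2 lower (Ndufb3 and Ndufb8), and 11.9% of all genes did not overlap (3.73% higher and 8.14% lower in LD). Ndufs1 averaged 67.8 ± 7.24 FPKM in LD and 48.6 ± 3.57 FPKM in TAC (SD, n = 3 each), a log2 difference of 0.47 ± 0.23 (SE) with a limma adjusted p of 0.566. Ndufa13 differed by 0.38 ± 0.20 (adjusted p 0.583), Ndufa2 by 0.51 ± 0.28 (adjusted p 0.597) and Ndufs7 by 0.61 ± 0.37 (adjusted p 0.623). Without TAC replicate 3, the difference was 0.08 for Ndufs7 and 0.14 for Ndufa2, whereas it was 0.44 for Ndufs1 and 0.40 for Ndufa13. On the lower side, Ndufb3 differed by -0.28 ± 0.20 (adjusted p 0.650), Ndufc2 by -0.40 ± 0.29, Ndufb8 by -0.22 ± 0.19 and Ndufb4 by -0.26 ± 0.23. The 95% interval reached from -0.02 to 0.95 for Ndufs1 and from -0.70 to 0.14 for Ndufb3.

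TAC against sham compared operated and sham-operated mice on distilled water. It uses the same TAC hearts as the comparison above, so that a TAC heart that is low lowers one and raises the other. No gene was called (limma adjusted p under 0.05), while voom on recovered fragments called 4 genes, none of which was a member. Subunits stood lower in TAC by a median of -0.19, with 28 of 35 below 0, against 50% of all genes and a median of -0.00 over all genes. Leaving out TAC replicate 3 brought the median to -0.04, with 19 of 35 below 0. Of all genes, 5.43% had an unadjusted p under 0.05 (2.85% higher and 2.58% lower in TAC), and of the 35 subunits 0 did.

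Single subunits did not pass the test in TAC against sham. Ndufa13 averaged 454 ± 34.5 FPKM in TAC and 588 ± 67.4 FPKM in sham (SD, n = 3 each), a difference of -0.37 ± 0.20 with a limma adjusted p of 0.958, and Ndufs1 differed by -0.40 ± 0.23 (adjusted p 0.974). Both had no overlap between the groups, as did Ndufb3 on the higher side (0.32 ± 0.20, adjusted p 0.974), that is 3 of 35 subunits, where 9.84% of all genes had none (5.22% higher and 4.62% lower in TAC). Ndufb11 differed by -0.42 ± 0.21 (adjusted p 0.937) and Ndufs5 by -0.43 ± 0.23 (adjusted p 0.958). Their values without TAC replicate 3 were -0.37 for Ndufs1, -0.39 for Ndufa13, -0.32 for Ndufb11, -0.58 for Ndufs5 and 0.39 for Ndufb3, with the same signs as in all libraries. Ndufs3 had the largest value, 2.11 ± 1.09, with an interval from -0.24 to 4.45. Ndufc2 differed by 0.35 ± 0.29 and Ndufa10 by 0.05 ± 0.23.

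LD against sham set the treated operated mice beside sham-operated ones, with hearts that each also entered one of the other comparisons. The subunit median was 0.04 (22 of 35 above 0, against 37.2% of all genes above and 62.8% below 0), with a median of -0.11 over all genes. Scaling by the median of ratios put 30 of 35 subunits above 0 in this comparison (median 0.17), and without LD replicate 3 it was 17 of 35. The share and median of all genes above belong to the main fit, not to these settings. Over the alternatives other than leaving out 1 library, the median of all genes ran from -0.18 to 0.0041. Under limma 0 of 11380 genes were called, 581 genes (5.11%) had an unadjusted p under 0.05 (1.52% higher and 3.59% lower in LD), and 0 of 35 subunits did. Voom on recovered fragments called 3 genes, none a member, and a joint test of any difference among the 3 groups gave 6.76% of genes an unadjusted p under 0.05. Ndufa2 was the only subunit above sham with no overlap (0.32 ± 0.28, limma adjusted p 0.889) and Ndufb8 the only one below it (-0.20 ± 0.19, adjusted p 0.893), where 13.2% of all genes did not overlap (4.47% higher and 8.76% lower in LD). The other subunits of smallest p reported here were Ndufs7 (0.37 ± 0.37) and Ndufs3 (1.14 ± 1.09) above 0. Below 0 they were Ndufb4 (-0.23 ± 0.23), Ndufb2 (-0.17 ± 0.21) and Ndufa5 (-0.17 ± 0.22).

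**Figure D3:**
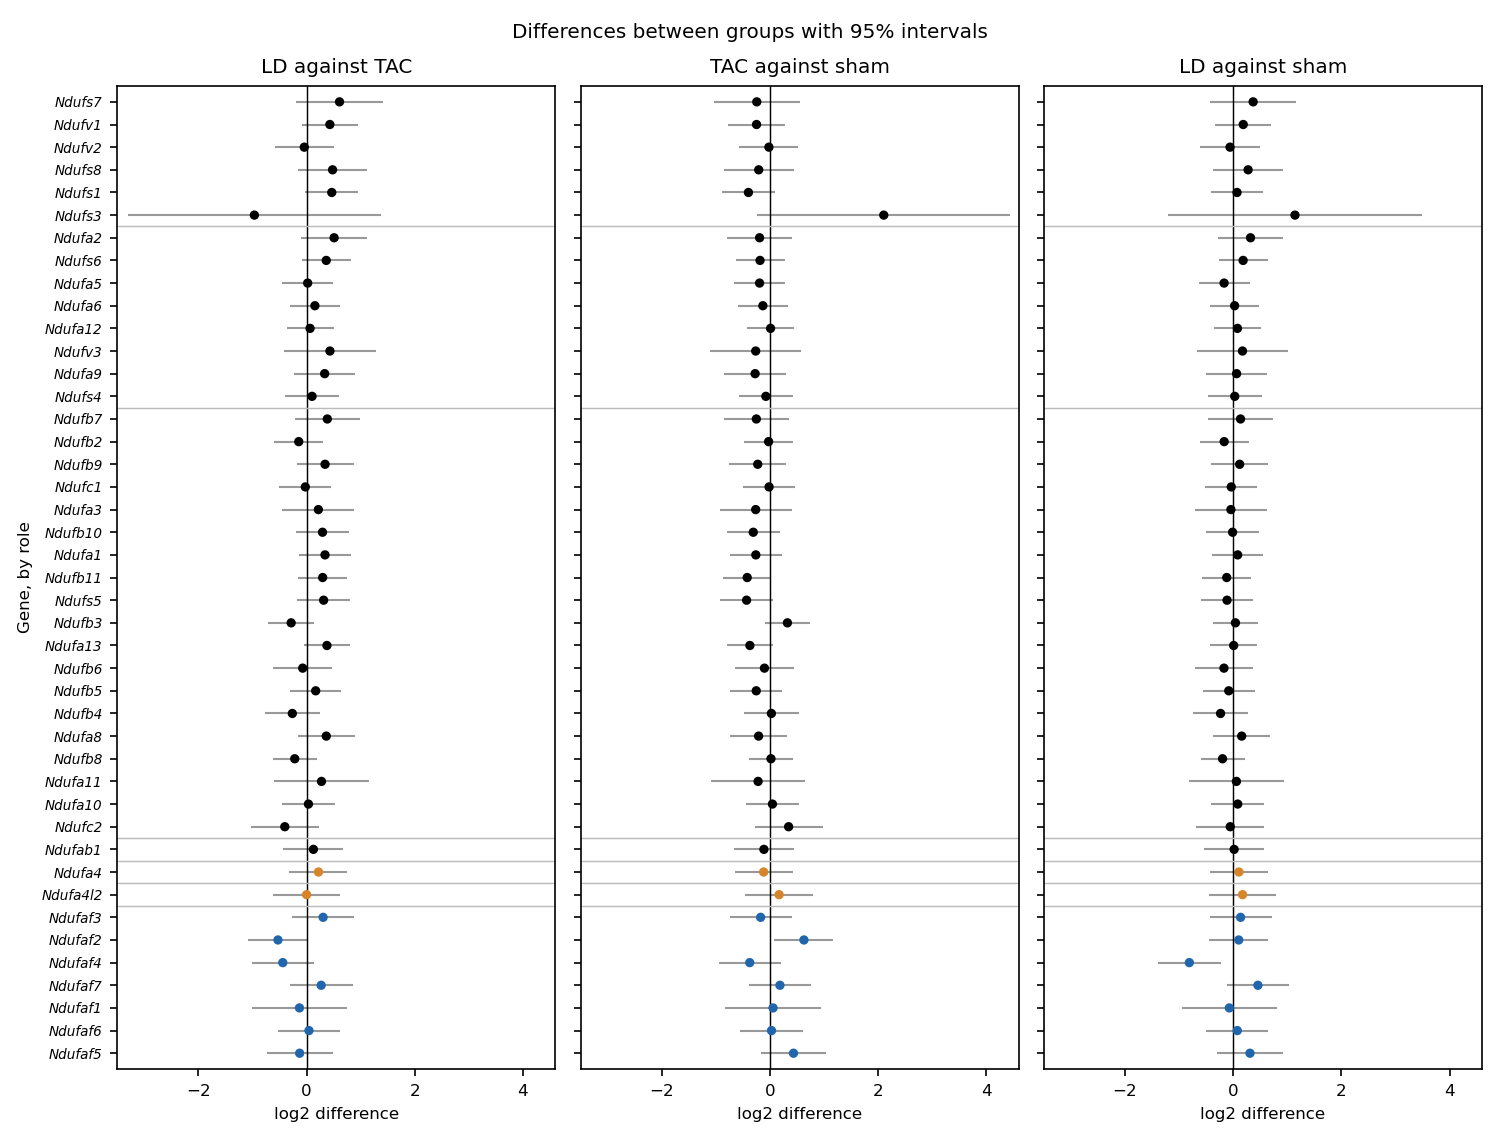
Log2 differences of 43 of the 44 tested genes in LD against TAC, TAC against sham and LD against sham, with limma's 95% intervals; black points are subunits, orange points Ndufa4 and Ndufa4l2, and blue points assembly factors. The intervals of all subunits drawn include 0, and Ndufs3 has the widest.

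The median of the assembly factors lay on the other side of 0 from that of the subunits in LD against TAC and in TAC against sham. It was -0.13 in LD against TAC, 0.06 in TAC against sham and 0.10 in LD against sham. Ndufaf2 binds a late assembly intermediate and is a paralogue of the subunit Ndufa12. It stood at 20.7, 21.4 and 22.2 FPKM in LD, 36.4, 35.4 and 23.9 in TAC, and 21.999, 23.9 and 15.0 in sham hearts. TAC replicate 3 (23.89 FPKM) and sham replicate 2 (23.86 FPKM) nearly met, and the other TAC hearts stood well above both LD and sham. In TAC against sham the difference was 0.63 ± 0.25, with an unadjusted limma p of 0.0266 and an adjusted p of 0.847. Of the 44 tested members it alone was under 0.05 unadjusted there, beside 5.43% of all genes. In LD against TAC the difference was -0.53 ± 0.25 (adjusted p 0.566), also without overlap, and in LD against sham 0.10 ± 0.25. Groups did not overlap for 9.84% of all genes in TAC against sham and 11.9% in LD against TAC. Ndufaf2 (chromosome 13, 108002715 to 108158623, minus strand) shares 1955 of its 2978 annotated exon bases (65.6%) with a long non-coding RNA gene, B230220B15Rik, on the other strand. The length recovered for Ndufaf2 was only 808 bases, so many of the shared bases lie outside the part that was counted. How much of the counted part is shared was not tested. No step that marks the strand is named in the protocols, so reads from shared bases cannot be told apart.

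Ndufaf4 and Ndufaf3 work together early in the assembly of the ubiquinone module. Ndufaf4 stood at 15.0, 9.84 and 14.1 FPKM in LD, 15.2, 14.8 and 24.6 in TAC, and 27.2, 21.2 and 21.7 in sham hearts. All LD hearts lay below all sham hearts, and TAC replicates 1 and 2 lay near the highest LD value. Between LD and sham 13.2% of all genes did not overlap, and 5.11% had an unadjusted p under 0.05. For Ndufaf4 the difference in LD against sham was -0.81 ± 0.27 with an unadjusted p of 0.0093, a limma adjusted p of 0.875 and an interval from -1.39 to -0.23. When limma weighted the libraries by their quality, the adjusted p was 0.0203 with a difference of -1.04, in a fit that called 135 genes. After an adjustment for transcript GC per library, chosen after seeing the data, the difference was -0.53 (adjusted p 0.904). Ndufaf3 had 24.2, 40.0 and 33.3 FPKM in LD, 31.2, 27.4 and 19.4 in TAC, and 23.6, 30.1 and 33.9 in sham hearts, with overlap throughout.

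Among the remaining assembly factors no difference had an unadjusted p under 0.05. Ndufaf5, which hydroxylates an arginine of Ndufs7, had 9.21, 8.75 and 6.07 FPKM in LD, 6.98, 10.4 and 9.04 in TAC, and 7.25, 7.43 and 4.32 in sham hearts. Ndufaf7, a mitochondrial methyltransferase, had 13.2, 15.8 and 24.0 FPKM in LD, 14.0, 15.2 and 13.0 in TAC, and 9.82, 11.9 and 15.5 in sham hearts. LD replicate 3 stood apart from the rest for this gene. Ndufaf1, part of the complex that builds the membrane arm, had 7.599, 7.84 and 16.6 FPKM in LD, 8.32, 8.62 and 18.6 in TAC, and 15.9, 13.2 and 5.51 in sham hearts. It was high in the third library of LD and of TAC and low in the third of sham. Ndufaf6 had 7.89, 8.36 and 11.1 FPKM in LD, 9.06, 11.0 and 6.59 in TAC, and 9.07, 9.78 and 6.96 in sham hearts.

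**Figure D4:**
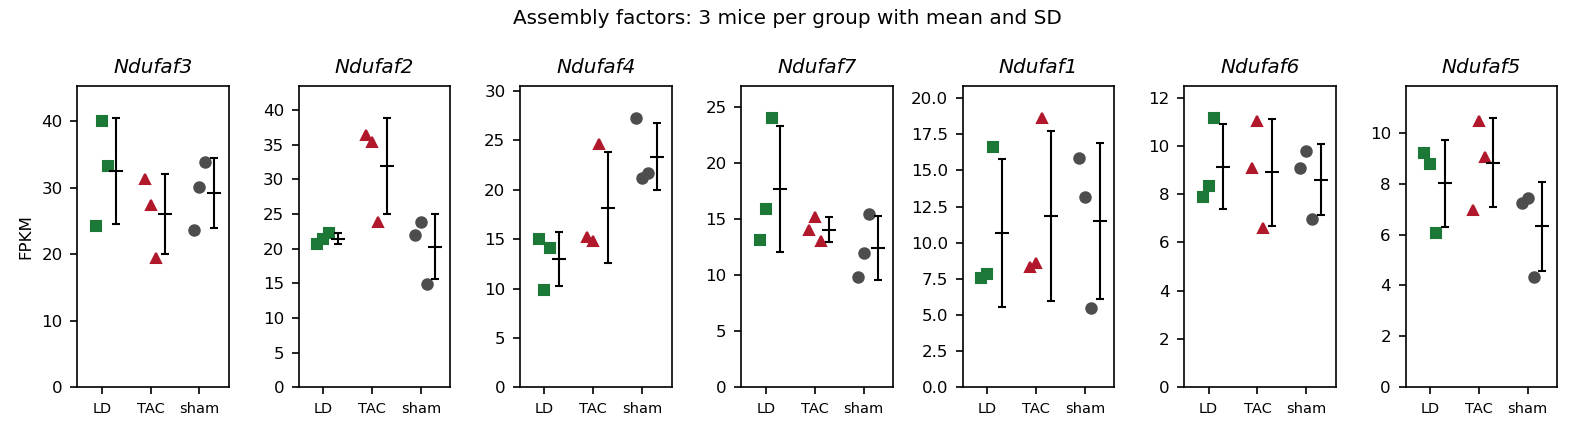
FPKM of the 7 assembly factors in the 3 hearts of each group (LD, TAC and sham from left to right), with the mean and SD beside the points. Ndufaf2 is the factor whose TAC hearts all lie above the other hearts, narrowly for TAC replicate 3, and Ndufaf4 the one whose LD hearts all lie below the sham hearts.

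Ndufa4 and Ndufa4l2 overlapped between all groups. Ndufa4 had 2226, 3580 and 2679 FPKM in LD, 2529, 2709 and 1966 in TAC, and 2377, 3277 and 2197 in sham hearts, with a difference of 0.22 ± 0.25 in LD against TAC. Ndufa4l2 had 30.7, 43.2 and 48.0 FPKM in LD, 33.5, 58.0 and 32.7 in TAC, and 45.5, 26.4 and 36.6 in sham hearts. Its differences were 0.00 ± 0.29 in LD against TAC and 0.17 ± 0.29 in TAC against sham.

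Summed over the 36 subunits, the level was 32275, 33497 and 34447 FPKM in LD, 32825, 30931 and 24166 in TAC, and 31484, 32975 and 32197 in sham hearts. These sums differed by little except in TAC replicate 3, which stood below all others. The summed FPKM of all genes also differed between libraries. As a share of it, the subunits made up 6.10, 5.74 and 5.77% in LD, 6.00, 5.44 and 5.13% in TAC, and 5.95, 6.06 and 6.08% in sham hearts. By share TAC replicate 3 was again the lowest and TAC replicate 2 the next, and LD replicates 2 and 3 lay below every sham heart. In TAC replicate 3 the shortfall was uneven. Against the sham mean, Ndufv3, Ndufs7 and Ndufa3 stood at -1.39, -1.31 and -1.01 on the log2 scale, while Ndufc2, Ndufv2, Ndufb4 and Ndufs4 stood between 0.26 and 0.45.

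This division followed the base composition of the transcripts, in a split chosen after seeing the data. Leaving out Ndufs3 and the untested Ndufa7, 21 subunits have a transcript GC content of at least 50% and 13 a lower one. In TAC replicate 3 the mean of the 21 GC-rich subunits was 0.66 below sham, and that of the 13 others was 0.05 above it. In LD replicate 2 and LD replicate 3 the GC-rich subunits were 0.16 and 0.22 above sham, against -0.05 and -0.01 for the others. The pattern crossed the groups: in TAC replicate 1 the GC-rich subunits were 0.06 above sham and the others 0.25 below, the reverse of TAC replicate 3. Pearson's r across the 34 subunits between transcript GC and the deviation from the gene's own mean was 0.187, 0.405 and 0.346 in the LD hearts, 0.608, -0.227 and -0.690 in the TAC hearts, and -0.383, -0.360 and 0.597 in the sham hearts. Over 11029 genes tested, r had the same sign as for the subunits in 8 of the 9 libraries and ran from -0.369 in TAC replicate 3 to 0.323 in LD replicate 2. Genes of 1 library share its preparation and are not independent replicates.

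**Figure D5:**
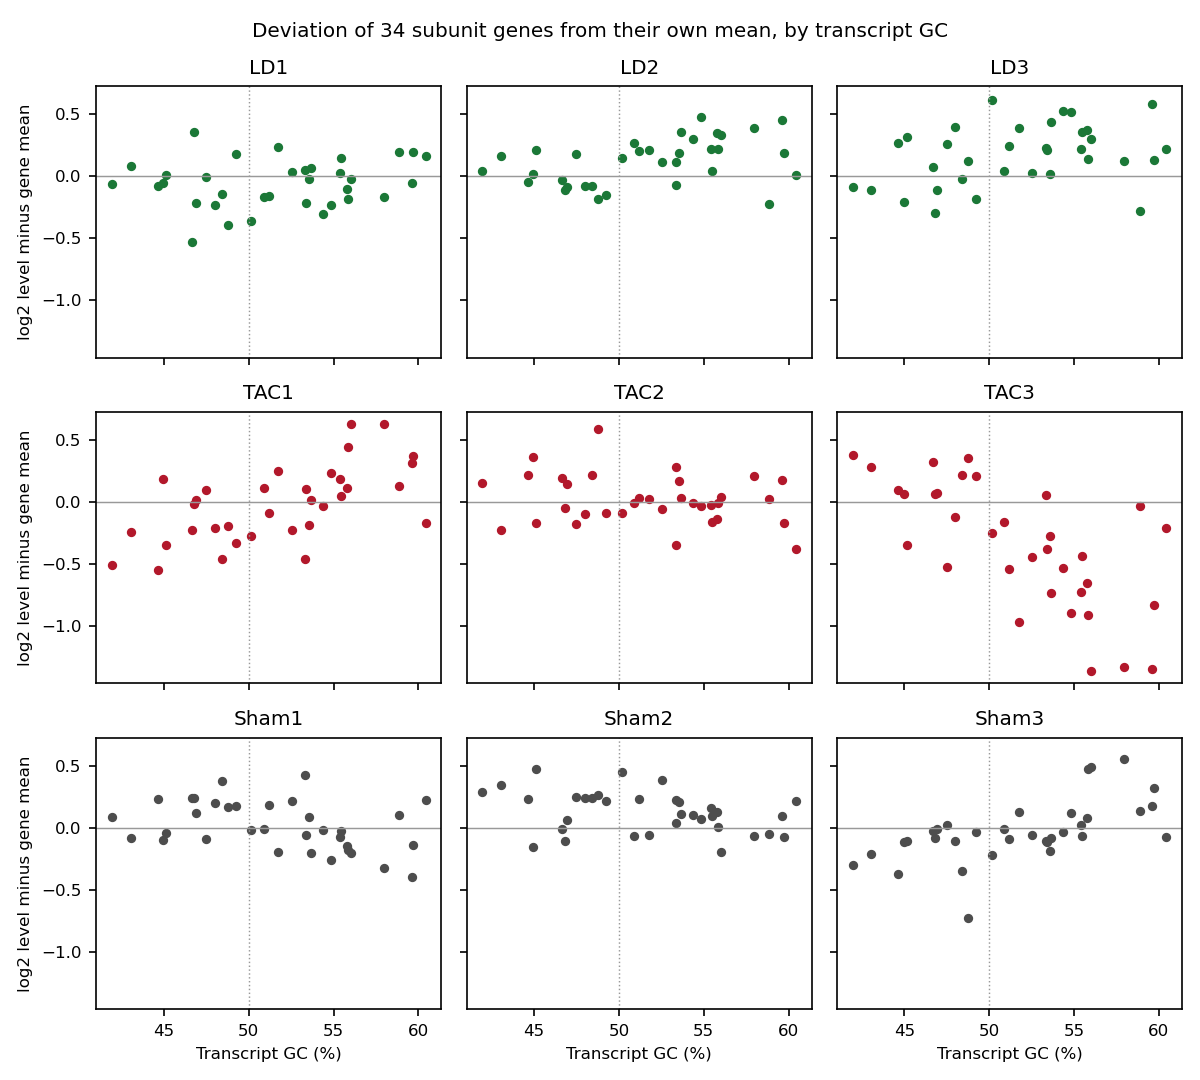
Deviation of 34 subunit genes from their own mean over 9 libraries (log2, vertical axis) against the GC content of their transcript in percent (horizontal axis), with 1 panel per library, LD above TAC above sham; the dotted line marks 50%. Points fall with GC in TAC replicate 3 and rise with GC in TAC replicate 1 and sham replicate 3.

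The comparisons differ between the GC classes accordingly. In LD against TAC, 20 of 21 GC-rich subunits were above 0 (median 0.34), but only 6 of 13 of the others (median -0.02). All genes tested showed medians of 0.03 for the GC-rich class and -0.25 for the other. For TAC against sham the subunit medians were -0.22 and -0.07, with medians of -0.07 and 0.07 over all genes. After subtracting each library's trend on GC, the subunit median was 0.32 in LD against TAC (29 of 35 above 0), -0.15 in TAC against sham (30 of 35 below 0) and 0.13 in LD against sham (28 of 35 above 0). With that adjustment and without TAC replicate 3 and LD replicate 3, it was 0.06 in LD against TAC and -0.03 in TAC against sham. The shares and medians of all genes given earlier belong to the main fit, and not to these adjusted counts. Over the 15 alternatives other than leaving out a single library, the median of all genes ran from -0.19 to 0.011 in LD against TAC. In TAC against sham it ran from -0.023 to 0.017, and in LD against sham from -0.18 to 0.0041. The part of library preparation, RNA quality or cell content in these differences was not tested.

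As a set, the subunits moved together only in part. Over the 9 libraries, the median Pearson's r between pairs of the 34 subunits was 0.208, and 220 of 561 pairs had an r below 0. Ndufa11 and Ndufa3, both GC-rich, had an r of 0.983, and Ndufs8 and Ndufv1 one of 0.982. At the other end stood Ndufa13 with Ndufb3 (-0.881) and Ndufb7 with Ndufv2 (-0.822). These 9 points share 3 groups and differ in depth. Relative to the mean of the subunits in the same library, Ndufb10 kept the steadiest level (SD 0.115 on the log2 scale) and Ndufa11 the least steady (SD 0.499).

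Outside complex I, the genes most like the subunit mean over the 9 libraries were Spr (Pearson's r 0.971), Atp5g2, Grcc10 and Mrpl12 (0.960 each), Msrb1 and Pkm (0.956 each), Sepw1 (0.955) and Apbb1 (0.951). Atp5g2 encodes the ring subunit of ATP synthase and Mrpl12 a protein of the mitochondrial ribosome. The median r with the subunit mean was 0.654 for 15 ATP synthase genes, 0.615 for 13 complex IV genes, 0.559 for 12 cardiomyocyte markers, 0.414 for 9 complex III genes and 0.288 for 8 complex II genes, against -0.198 over the 11336 other genes tested. For the 12 tested assembly genes without the Nduf symbol it was -0.117, and for 10 fibroblast markers -0.529.

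The other assembly genes of complex I, a list that includes Ecsit, Acad9, Tmem126b and Timmdc1, had 12 of 15 members tested. In LD against TAC 6 were above 0 and 6 below (median 0.05), and Lyrm2 alone had an unadjusted p under 0.05 (-0.67 ± 0.31, limma adjusted p 0.560). In TAC against sham 5 were above 0 and 7 below (median -0.10). The medians of the other respiratory complexes lay on the same side of 0 as that of the complex I subunits in both comparisons. In LD against TAC they were 0.32 for complex II, 0.23 for complex III, 0.17 for complex IV and 0.23 for ATP synthase. In TAC against sham they were -0.21, -0.26, -0.16 and -0.11 in that order, all with the TAC hearts shared. Against the sham mean, complex IV genes averaged 0.01, 0.07 and -0.52 in TAC replicates 1 to 3, and ATP synthase genes -0.09, -0.02 and -0.46. Complex III genes averaged -0.18, -0.09 and -0.31, and complex II genes -0.45, -0.09 and -0.20. TAC replicate 3 was thus the lowest TAC heart except for complex II. Atp5g2 had the smallest p among the genes of these complexes in LD against TAC (0.83 ± 0.28, adjusted p 0.537).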

How the data were processed

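The authors deposited 1 table of FPKM values for 9 libraries. The submitters' processing notes name DESeq, Cufflinks 2.2.1, HTSeq 0.7.2, HISAT2 2.1.0, fastp 0.20.0, CASAVA 1.8 and build GRCm38. The role of each tool, the annotation and the use of strand: not given in the sources used here. Each column was matched to its sample by name, and 0 columns were left without a sample. FPKM steps gave whole fragments for all 16262 genes above 0 (tolerance 0.001) and thereby library totals; precision from depth covers counting error only.

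Genes that reached an FPKM of 1 in 3 or more libraries (11380, 44 of them members) were tested on log2(FPKM + 1), which understates changes of low genes, with limma 3.58.1 in R 4.3.3: 3 groups in 1 fit, 6 residual degrees of freedom, trended empirical Bayes, two-sided moderated tests, Benjamini-Hochberg adjustment over all genes, threshold 0.05. The labels speak of biological repeats. Errors of differences are standard errors. The fit was tested on simulated data. All 45 members matched GENCODE M21, which gave positions, exon overlaps and transcript GC, read from the annotated transcript closest in length to the length recovered from the FPKM steps (11029 of the tested genes). For Ndufa11 and Ndufa13, among others, that transcript was far shorter than the recovered length. Promoter windows are RefSeq's. The trend on GC was a lowess curve (span 0.5) of each library's deviations. Reads shared with near-identical gene copies could not be checked.

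The values of 1 subunit gene are not reported here, and it is counted in the sums, medians and counts. Otherwise named were the core subunits, Ndufab1, Ndufa4, Ndufa4l2, every Ndufaf gene, the 3 highest and 3 lowest subunits, the 4 subunits of smallest p in each direction of each comparison, the 8 genes most like the subunit mean, and a few genes of other lists; Ndufa11, Ndufa3, Ndufv3, Ndufs4, Ndufs6, Ndufb10 and Ndufc1 were named after their values were seen. Members and gene lists were chosen with earlier results of these data known. In all, 24 alternatives changed the pseudocount, filter, scaling, fit or weights, or left out libraries.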

Additional observations from a re-analysis of the deposited data

How the results depend on the processing

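Of the 24 alternatives, all kept the sign of the subunit median in TAC against sham (-0.29 to -0.039 when 1 library at a time was left out) and in LD against TAC (0.12 to 0.33). LD against TAC was 0.049 without TAC replicate 3 and LD replicate 3, and 0.062 with the GC adjustment added to that. It was 0.42 under median-of-ratios scaling, which rescales all genes. In LD against sham the sign of the subunit median held in 20 of 24. The assembly factors' median in LD against TAC was 0.13 with the GC adjustment, alone or with the replicate block, and ran from -0.27 to 0.048 with 1 library left out. In TAC against sham it ran from -0.060 to 0.21 with 1 library left out, and was 0.21 without TAC replicate 3 and LD replicate 3. In LD against sham it ran from -0.055 to 0.17.

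Genes called in LD against TAC numbered 0 under every alternative. In TAC against sham they were 2 with a filter at an FPKM of 5, 9 with library weights and 4 with voom, and 0 to 13 with 1 library left out. In LD against sham they were 3 with that filter, 10 with 2 groups in the fit, 135 with weights and 3 with voom, and 0 to 8 with 1 library left out. For any group they were 2, 44 and 3 under filter, weights and voom, and 0 to 8 with 1 library left out. The only member called under any alternative was Ndufaf4 in LD against sham, with weights. The GC adjustments were chosen after seeing the data.

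Replicate numbers recur in the 3 groups, and deviations of same-numbered libraries correlated between -0.236 and 0.146, with 1 of 9 pairs above 0.1. Deviations of libraries with different numbers correlated between -0.269 (LD replicate 2 with TAC replicate 3) and 0.370 (TAC replicate 1 with sham replicate 3). Whether libraries of different groups shared a day, litter or batch was not tested, as the labels give none. With the replicate block 0 genes were called in each comparison, as without it, and not every sample correlated best with its own number. With 3 hearts a group, no member passed the adjusted threshold in the fit of all 9 libraries, though the groups of some members did not overlap. The low levels of the assembly factors rest on 88 to 1792 fragments a gene and library.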

Other observations

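Of 13 tested regulators of mitochondrial genes, 12 stood below 0 in LD against sham. The list includes Esrra, Nrf1, Gabpa, Ppargc1a and Yy1, and also Tfam, Tfb1m and Tfb2m. Its median was -0.34, beside -0.11 over all genes, of which 62.8% were below 0. Only Yy1 had an unadjusted p under 0.05 (-0.55 ± 0.25, limma adjusted p 0.875). In LD against TAC 8 of 13 were below 0 (median -0.19), beside 60.4% of all genes, and Gabpa, the DNA-binding subunit of GABP, differed by -0.73 ± 0.26 (adjusted p 0.537). In TAC against sham 9 of 13 were below 0 (median -0.12), the same side as the subunits. There Esrra, an oestrogen-related receptor, differed by -0.61 ± 0.24 (adjusted p 0.842) and Ppargc1b, its coactivator, by -0.63 ± 0.28 (adjusted p 0.909). The median r of these regulators with the subunit mean over the 9 libraries was -0.204, close to the -0.198 of all other genes tested. None passed the test.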
